A study of Mus musculus with 8 samples.

Results

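The genes described here are the oestrogen receptor genes Esr1 and Esr2, the glucocorticoid receptor gene Nr3c1, the mineralocorticoid receptor gene Nr3c2, and Pgr and Greb1, which are read as signs of oestrogen receptor activity. They are 6 of the 46517 genes in the deposited expression table. They were chosen by name, and Esr1 was put among them because its level was seen to differ from wild type in these same libraries, so its levels against wild type are given as a description with no test. Sox9, whose promoter the labels name for the transgene, is given beside them.

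Messenger RNA was sequenced from the stem cells of the hair follicle bulge, which rebuild the hair. They came from the back skin of male animals aged 70 days and were sorted for integrin alpha 6 and CD34 and against Sca-1 and the dead-cell dye DAPI. All mice carried the Cre reporter R26-YFPfl/fl. Added to it, NFIB-cKO mice had Sox9-CreER and NFIBfl/fl. NFIX-cKO mice had Sox9-CreER and NFIXfl/fl with NFIBfl/+, so that 1 Nfib allele was floxed in them too. NFIB/X-dKO mice had Sox9-CreER with both NFIBfl/fl and NFIXfl/fl. The wild-type (WT) mice had NFIBfl/fl and NFIXfl/fl without Sox9-CreER. At least 1 floxed Nfib allele was thus present in every group. The targeted genes, Nfib and Nfix, encode members of the nuclear factor I group of transcription factors, and Sox9-CreER is expressed where the Sox9 promoter is active. There were 2 libraries from separately numbered animals in each group, 81 and 85 for NFIB-cKO, 32 and 88 for NFIX-cKO, 33 and 36 for NFIB/X-dKO, and 34 and 82 for WT. The 6 knockout libraries were also gated on YFP and the WT libraries were not, so that the transgene, the deletions and the YFP gate differ from WT together and cannot be told apart in any comparison with WT. Whether and when a ligand for CreER was given is not given in the sources used here.

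Steroid receptors are transcription factors of the nuclear receptor family: a hormone binds the C-terminal ligand-binding domain, the receptor leaves its heat shock protein complex, and in the nucleus it binds DNA response elements and recruits coactivators or corepressors. The glucocorticoid and mineralocorticoid receptors bind closely related elements, and in skin glucocorticoid signalling is known to restrain keratinocyte growth and inflammation. CreER is Cre recombinase fused to the ligand-binding domain of an oestrogen receptor, altered so that tamoxifen metabolites open it; the fusion lacks the receptor's DNA-binding domain, and its messenger RNA carries receptor sequence that an aligner can assign to Esr1. Pgr, the progesterone receptor gene, and Greb1, a cofactor of the oestrogen receptor, are classical genes that active oestrogen receptor switches on in breast and uterus.

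Esr1 lies on chromosome 10 at 4611593 to 5005614 of mm10 (GRCm38), plus strand. Its coding sequence runs over 8 coding exons, of which the last 4 encode most of the ligand-binding domain, the part of a receptor that CreER fusions carry. These 4 are printed because they differ between the annotated short Esr1 transcripts described next: Esr1-208 holds all of them, Esr1-206 holds part and Esr1-205 holds none. The sequence is the mouse reference, 5′ to 3′ and without the stop codon, with coordinates on mm10. Capitals mark the bases that the shortest transcript, Esr1-206, also holds.

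Esr1 coding exon 5, chr10:4939212-4939350: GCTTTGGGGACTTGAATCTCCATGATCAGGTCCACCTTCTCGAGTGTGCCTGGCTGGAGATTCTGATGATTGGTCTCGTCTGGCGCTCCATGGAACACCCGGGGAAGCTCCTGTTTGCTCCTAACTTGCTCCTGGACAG
Esr1 coding exon 6, chr10:4969159-4969292: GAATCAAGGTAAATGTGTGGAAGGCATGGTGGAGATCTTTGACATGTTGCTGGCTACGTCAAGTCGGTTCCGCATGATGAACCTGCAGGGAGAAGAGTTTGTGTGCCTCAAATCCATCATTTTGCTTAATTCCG
Esr1 coding exon 7, chr10:4997830-4998013: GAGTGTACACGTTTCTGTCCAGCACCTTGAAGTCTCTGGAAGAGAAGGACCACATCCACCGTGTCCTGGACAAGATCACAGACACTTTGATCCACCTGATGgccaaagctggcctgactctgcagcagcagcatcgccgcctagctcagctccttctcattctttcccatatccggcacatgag
Esr1 coding exon 8, chr10:5001189-5001420: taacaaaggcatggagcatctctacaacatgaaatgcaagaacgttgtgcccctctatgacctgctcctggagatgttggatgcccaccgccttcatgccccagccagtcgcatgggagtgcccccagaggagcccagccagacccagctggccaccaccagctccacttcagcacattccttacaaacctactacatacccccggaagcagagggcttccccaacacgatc

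Esr1 was low in WT and was read in every library that carried the transgene. It stood at 31.76 and 32.36 TPM (abundance per transcript length, with an equal total in each library) in the NFIB-cKO libraries 81 and 85, 15.05 and 26.14 TPM in the NFIX-cKO libraries 32 and 88, 12.55 and 19.92 TPM in the NFIB/X-dKO libraries 33 and 36, and 0.47 and 0.33 TPM in the WT libraries 34 and 82. The lowest of the 6 Sox9-CreER libraries was 26.7 times the higher WT library, so the groups did not overlap. As group means this was 32.1 ± 0.42 TPM in NFIB-cKO, 20.6 ± 7.84 TPM in NFIX-cKO, 16.2 ± 5.21 TPM in NFIB/X-dKO and 0.40 ± 0.10 TPM in WT (SD, n = 2 each). Reads of the mouse's own Esr1 and of the receptor part of the transgene are added in these values and were not told apart.

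**Figure D1:**
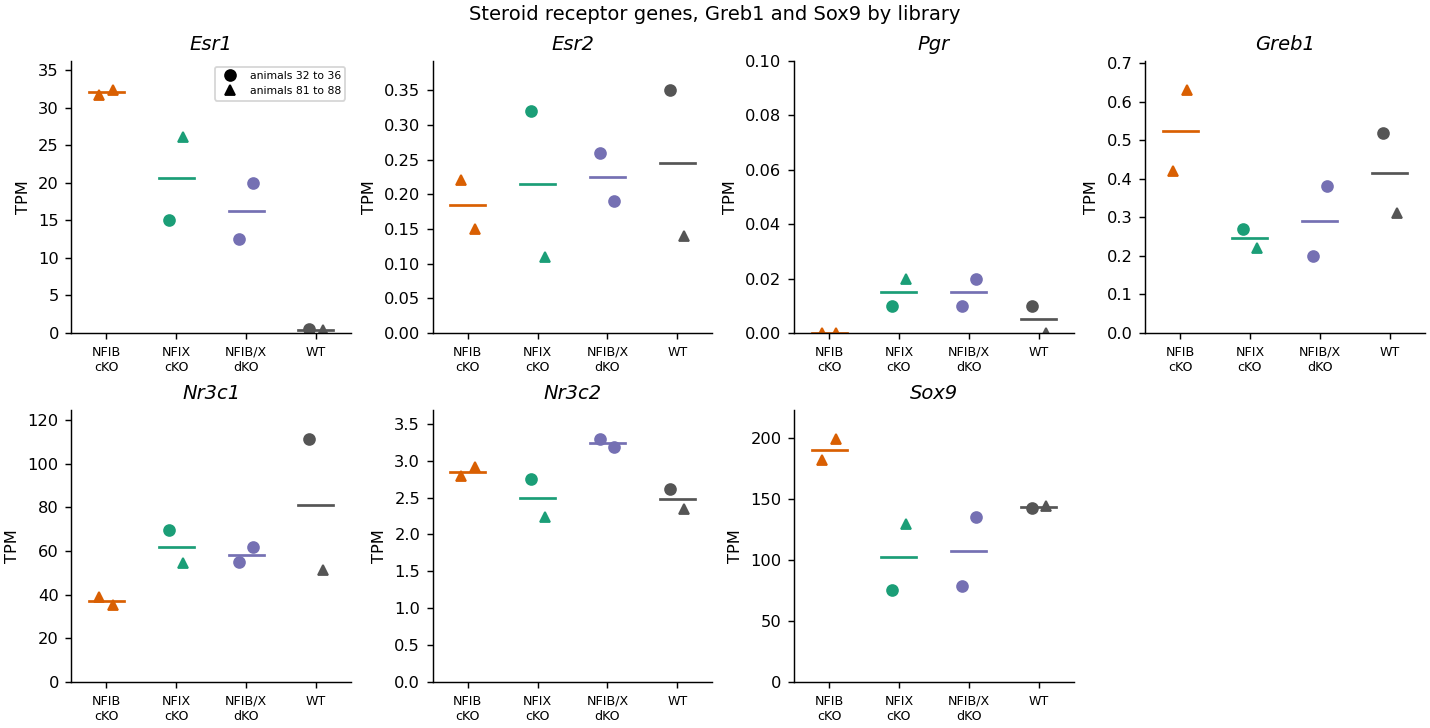
Level of each gene in TPM (vertical axis, linear from 0) in the 8 libraries, by group; points are libraries, circles are animals 32 to 36 and triangles animals 81 to 88, and bars are group means of 2 libraries. Esr1 is at 12.55 TPM or more in every Sox9-CreER library and at no more than 0.47 TPM in WT, while Pgr does not exceed 0.02 TPM and Greb1 does not exceed 0.63 TPM anywhere.

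The gene tables for 5 libraries give the mean length of the Esr1 transcripts to which reads were assigned, weighted by their abundance. It was 1226.52 bases in NFIB-cKO 85, 1343.44 and 1236.65 bases in NFIX-cKO 32 and 88, and 1362.05 and 1316.12 bases in NFIB/X-dKO 33 and 36. These means are far below the 3 annotated transcripts with the whole coding sequence, which are 2612 bases (Esr1-203), 4344 bases (Esr1-201) and 6339 bases (Esr1-204) long. Of the 10 transcripts, only Esr1-206 (719 bases), Esr1-208 (1019 bases) and Esr1-205 (1356 bases) are shorter than 2106 bases. On GENCODE M21 lengths, a mean this low requires that these 3 were assigned at least 63.4% of the Esr1 abundance in NFIB-cKO 85. The least share was 55% and 62.7% in NFIX-cKO 32 and 88, and 53.6% and 56.9% in NFIB/X-dKO 33 and 36. Transcripts with the whole coding sequence could be assigned at most 26.8% in NFIB-cKO 85. The most was 33% and 27.3% in NFIX-cKO 32 and 88, and 34% and 31.5% in NFIB/X-dKO 33 and 36. These bounds describe how reads were assigned, transgene reads possibly among them, and not which Esr1 transcripts the cells made.

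The short transcripts differ in which end of the receptor they hold. Esr1-208 holds all 689 coding bases of the last 4 coding exons printed above and none of the first 4, and Esr1-206 holds 374 of these bases. Esr1-205 holds 505 coding bases, all from the first 3 coding exons, which encode the N-terminal part, and none of the last 4. The bounds do not separate the 3 short transcripts from each other. The library with the most Esr1, NFIB-cKO 85, had the shortest mean length, and the library with the least, NFIB/X-dKO 33, had the longest; the 3 between them followed the same order. For the other genes the mean length was 5987 to 6133 bases for Nr3c1, 4709 to 5675 bases for Nr3c2 and 3411 to 7025 bases for Greb1.

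**Figure D2:**
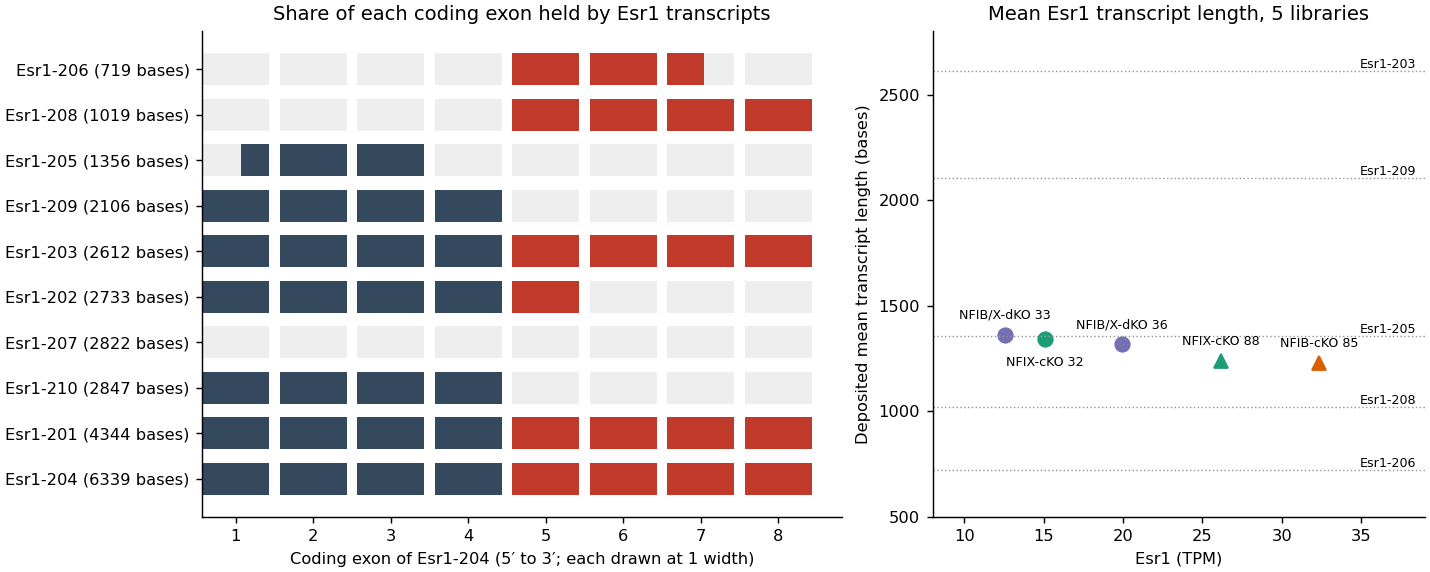
Left, the share of each of the 8 coding exons of Esr1-204 (horizontal axis, 5′ to 3′) that each annotated Esr1 transcript holds, filled in blue for coding exons 1 to 4 and in red for 5 to 8. Right, the deposited mean Esr1 transcript length in bases against the Esr1 level in TPM in the 5 libraries with gene tables (orange NFIB-cKO, green NFIX-cKO, purple NFIB/X-dKO), with annotated lengths as dotted lines: all 5 means lie between Esr1-208 and just above Esr1-205.

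Because TPM divides reads by length, this assignment also sets the size of the Esr1 level. The reads themselves amounted to 1640.27 expected counts (reads as RSEM shared them out) in NFIB-cKO 85, 770.33 and 1372.45 in NFIX-cKO 32 and 88, and 596.56 and 964.11 in NFIB/X-dKO 33 and 36. Had all of them come from the longest transcript, Esr1 would stand at 6.05 TPM in NFIB-cKO 85, 3.1 and 4.93 TPM in NFIX-cKO 32 and 88, and 2.62 and 4.01 TPM in NFIB/X-dKO 33 and 36. On that length each of these 5 values exceeds the 0.47 and 0.33 TPM of the WT libraries, whose own mean length was not analysed here. The 5 libraries held 57173266 to 66854625 expected counts in all, and TPM alone was used for both WT libraries and NFIB-cKO 81, whose depth is unknown.

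Among the 6 Sox9-CreER libraries, Esr1 followed Sox9, the transcription factor gene of bulge stem cells on chromosome 11 (112782224 to 112787760, plus strand). Sox9 stood at 181.58 and 198.97 TPM in NFIB-cKO, 75.73 and 129.33 TPM in NFIX-cKO, 79 and 134.99 TPM in NFIB/X-dKO, and 142.74 and 143.86 TPM in WT. The highest over the lowest of the 6 transgenic libraries was 2.58 for Esr1 and 2.63 for Sox9, but 1.37 for the ratio of the pair. Esr1 was 17.5% and 16.3% of the Sox9 level in NFIB-cKO 81 and 85, 19.9% and 20.2% in NFIX-cKO 32 and 88, and 15.9% and 14.8% in NFIB/X-dKO 33 and 36. In WT, with Sox9 in the same range, it was 0.329% and 0.229%. These ratios describe 8 libraries that share the TPM scale, and no test was made on them. Sox9 was chosen beforehand as the named promoter, and how many other genes follow Esr1 as closely was not counted. Nfatc1, another stem cell marker gene, was also highest in NFIB-cKO, at 179.55 to 183.28 TPM. It was at 70.59 to 109.1 TPM in NFIX-cKO and 80.45 to 118.61 TPM in NFIB/X-dKO.

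**Figure D3:**
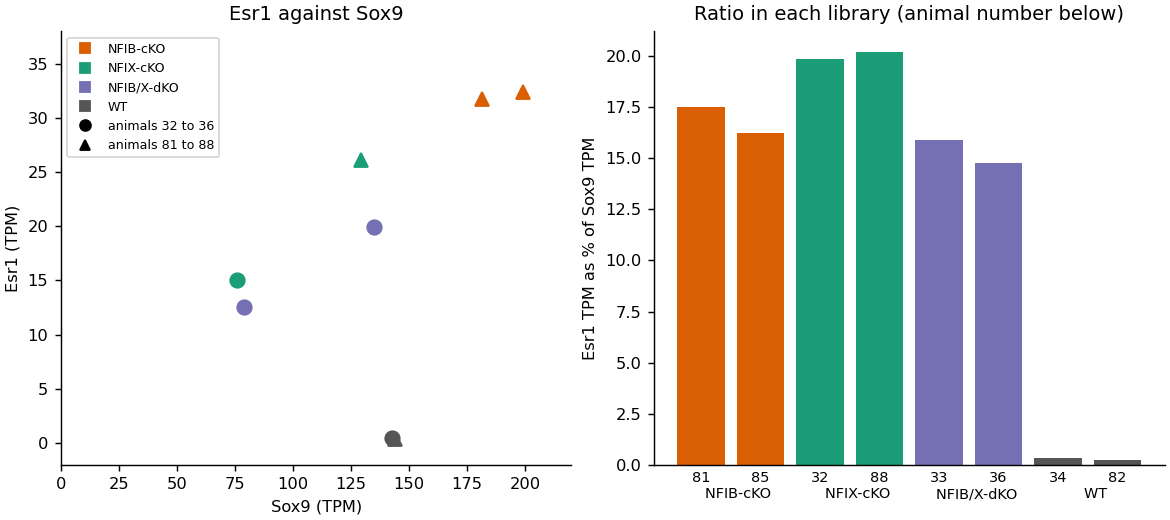
Left, Esr1 against Sox9, both in TPM, with 1 point for each library; right, Esr1 as a percent of Sox9 on the TPM scale in each library, with the animal number and group below. The bars run from 14.8% to 20.2% in the 6 Sox9-CreER libraries and are 0.329% and 0.229% in WT.

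The Esr1 level was highest in NFIB-cKO, then NFIX-cKO, then NFIB/X-dKO, and lowest in WT, and none of the differences between transgenic groups passed the test. The test was limma on log2(TPM + 1) over 15434 genes, with p-values adjusted by Benjamini and Hochberg over all of them and a threshold of 0.05. NFIB-cKO minus NFIX-cKO was 0.66 ± 0.30 (log2 difference ± SE, adjusted p = 0.446). It was 0.28 among the animals numbered in the 80s alone, with a single NFIX-cKO library. NFIB/X-dKO minus NFIB-cKO was -0.97 ± 0.30 (adjusted p = 0.267). The animals of these groups share no number series, and with series as a covariate, a term estimated from WT and NFIX-cKO, the difference was -0.67 (adjusted p = 0.862). NFIB/X-dKO minus NFIX-cKO was -0.31 ± 0.30 (adjusted p = 0.606), and 0.07 among the animals in the 30s, again with a single NFIX-cKO library. Sox9 differed by 0.93 ± 0.31 (adjusted p = 0.361), -0.87 ± 0.31 (adjusted p = 0.273) and 0.06 ± 0.31 (adjusted p = 0.929) in the same 3 comparisons.

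Counted over all genes, limma called 0.123% of genes in NFIB-cKO minus NFIX-cKO, 0.227% in NFIB/X-dKO minus NFIB-cKO and 0.784% in NFIB/X-dKO minus NFIX-cKO. Of the 3 receptor genes that reached the filter (Esr1, Nr3c1 and Nr3c2), 0 passed in each. Only Esr1 in NFIB/X-dKO minus NFIB-cKO was under 0.05 before adjustment, as were 17.2% of all genes there. The split of calls depended on scaling: with median-of-ratios factors it was 7 higher and 14 lower in NFIB-cKO minus NFIX-cKO, in place of 9 and 10, and 38 higher and 58 lower in NFIB/X-dKO minus NFIX-cKO, in place of 71 and 50. On the counts themselves, edgeR's quasi-likelihood test of NFIB/X-dKO against NFIX-cKO called 0.322% of 18349 genes. It called 0 of the 5 members it could test. DESeq2, which called more genes in all, as given in the last section, also called 0 of these members. By edgeR, Nr3c1 alone was under 0.05 before adjustment, as were 14.7% of all genes. Esr1 was lower by -0.56 ± 0.39 there (adjusted p = 0.559), and -0.96 once NFIX-cKO 32 was left out (adjusted p = 0.0264). That arm then holds 1 library, assumed to vary like the NFIB/X-dKO pair, and the fit called 6939 genes in all, against 0 to 1741 when another library was left out.

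Esr2 encodes the other oestrogen receptor, ERβ, and lies on chromosome 12 (76120419 to 76177259, minus strand). It was scarce in every group: 0.22 and 0.15 TPM in NFIB-cKO, 0.32 and 0.11 TPM in NFIX-cKO, 0.26 and 0.19 TPM in NFIB/X-dKO, and 0.35 and 0.14 TPM in WT. The 4 groups overlapped throughout. The 5 libraries with counts held 14.88 to 37.67 reads each, and its mean length stayed between 3001 and 3032 bases. It failed the filter of 1 TPM in 2 libraries; fitted without a filter over 32336 genes, the Sox9-CreER groups minus WT differed by -0.04 ± 0.09 (limma, adjusted p = 0.93), and by counts NFIB/X-dKO minus NFIX-cKO was -0.20 ± 0.57 (edgeR, adjusted p = 0.889).

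Pgr, on chromosome 9 (8899833 to 8968611, plus strand), was hardly detected whether or not Esr1 reads were present. It was listed at 0 TPM in both NFIB-cKO libraries, where Esr1 was highest, at 0.01 and 0.02 TPM in both NFIX-cKO and NFIB/X-dKO, and at 0.01 and 0 TPM in WT. In counts this was 0 reads in NFIB-cKO 85, 2 and 5 reads in NFIX-cKO 32 and 88, and 1 and 2 reads in NFIB/X-dKO 33 and 36. A count of 0 in NFIB-cKO 85 allows up to 0.0167 TPM by the floor of 3 reads, which covers counting error only. No difference between groups was detectable for Pgr at this depth.

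Greb1, on chromosome 12 (16670615 to 16800886, minus strand), was low in all groups and overlapped WT when the transgenic groups were pooled. It stood at 0.42 and 0.63 TPM in NFIB-cKO, 0.27 and 0.22 TPM in NFIX-cKO, 0.20 and 0.38 TPM in NFIB/X-dKO, and 0.52 and 0.31 TPM in WT. As means these were 0.53 ± 0.15, 0.25 ± 0.04, 0.29 ± 0.13 and 0.42 ± 0.15 TPM (SD, n = 2 each) in that order of groups. Both NFIX-cKO libraries lay below both WT libraries, and the NFIB-cKO libraries lay among and above them. Without the filter the Sox9-CreER groups minus WT gave -0.07 ± 0.10 (limma, adjusted p = 0.922). Counts put NFIB/X-dKO below NFIX-cKO (25.70 and 48.36 against 51.91 and 67.16 reads; edgeR -0.77 ± 0.45, adjusted p = 0.488), while mean TPM put it above, since the deposited mean Greb1 length was 3541 and 3411 bases in NFIB/X-dKO against 4969 and 7025 bases in NFIX-cKO.

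The windows of 250 bases before the RefSeq starts of Pgr, Greb1, Esr1, Esr2 and Nr3c2 (GRCm38.p6) were searched on both strands. The search was for the full oestrogen response element, a palindrome of GGTCA and TGACC around 3 bases of any kind, and for its arm GGTCA alone. The window of Nr3c1 is not reported here. The full element was in none of the Pgr, Greb1, Esr1, Esr2 and Nr3c2 windows and in 0.0639% of all 32851 windows. The arm occurred 0 times before Pgr and Esr1, 1 and 2 times before the 2 Greb1 starts, 2 times before Esr2 and 2 times before Nr3c2, against 35.2% of all windows with at least 1. Such matches describe these windows only.

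A list of 38 genes known as oestrogen-responsive in breast, uterus or other tissues, Esr1, Greb1 and Pgr among them, was examined, and 13 of them, Greb1 and Pgr included, stayed below the filter. Also below it were Tff1 and Ltf, classical secreted targets in human breast and mouse uterus, listed at 0 TPM in 7 of the 8 libraries and at no more than 0.06 and 0.04 TPM in NFIB/X-dKO. Of the 24 tested genes other than Esr1, 0 rose and 1 fell in the Sox9-CreER groups (mean of the 3 knockout groups) minus WT, with a median of -0.17 against 0.03 over all genes. In that comparison limma called 1.15% of all genes, 0.454% as higher and 0.693% as lower. The gene that fell was Cxcl12, a chemokine, at 35.06 and 29.53 TPM in NFIB-cKO, 35.05 and 67.72 TPM in NFIX-cKO, 17.04 and 16.29 TPM in NFIB/X-dKO, and 87.42 and 85.12 TPM in WT (-1.50 ± 0.23, adjusted p = 0.0338). Every transgenic library lay below both WT libraries. The call ended with no filter (adjusted p = 0.107), with median-of-ratios scaling (adjusted p = 0.0679), and without any 1 of the WT, NFIB-cKO or NFIB/X-dKO libraries (adjusted p = 0.0834 to 0.164), at estimates of -1.46 to -1.55.

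The other oestrogen-responsive genes with the smallest p did not pass. Ramp3, a partner of adrenomedullin receptors, was at 62.27 and 65.48 TPM in NFIB-cKO, 54.55 and 28.16 TPM in NFIX-cKO, 52.61 and 57.21 TPM in NFIB/X-dKO, and 22.3 and 15.09 TPM in WT (1.44 ± 0.25, adjusted p = 0.0537). Rerg, a growth-restraining Ras-like gene, differed by 0.80 ± 0.18 (adjusted p = 0.109), and Pdzk1, a scaffold protein gene, by -0.95 ± 0.21 (adjusted p = 0.107). Pdzk1 reached the filter through the WT libraries alone, so a fall from WT was favoured in advance. It was at 1.06 and 1.92 TPM in WT and 0.03 to 0.82 TPM in the transgenic libraries. In the separate groups, 0 of these 24 genes passed in NFIB-cKO minus WT, where 0.719% of all genes did, and 0 in NFIX-cKO minus WT, where 0.149% did; before adjustment 8 and 5 were under 0.05, as were 12.6% and 6.81% of all genes. In NFIB/X-dKO minus WT 2.88% of all genes passed, 1.62% as higher and 1.26% as lower, and of the 24 again only Cxcl12 did (-2.30 ± 0.28, adjusted p = 0.00978). The median of all genes was 0.16 higher in NFIB/X-dKO on the TPM scale, and with median-of-ratios scaling the split of calls was 201 higher and 243 lower, in place of 250 and 195.

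**Figure D4:**
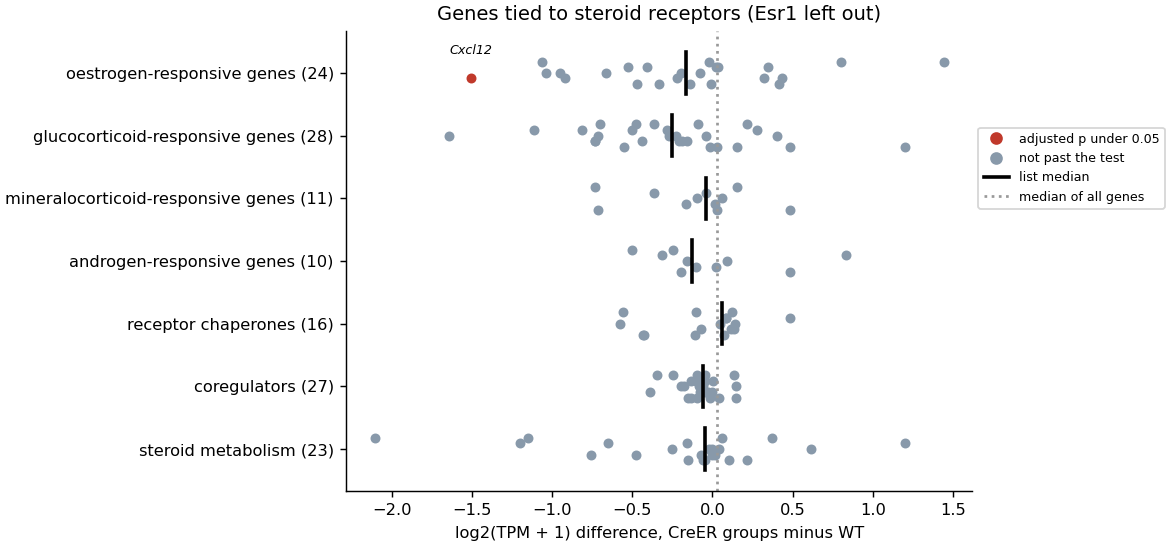
Difference on the log2(TPM + 1) scale between the Sox9-CreER groups and WT (horizontal axis) for each tested gene of 7 lists, with the number tested in brackets, the list median as a black bar and the median of all genes as a dotted line; the vertical spread within a list carries no value. The red point, Cxcl12, passed at an adjusted p under 0.05 and no other gene plotted did.

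Nr3c1 was the most abundant receptor of the set. It lies on chromosome 18 (39410545 to 39519421, minus strand) and stood at 39.18 and 35.37 TPM in NFIB-cKO, 69.59 and 54.49 TPM in NFIX-cKO, 54.9 and 61.76 TPM in NFIB/X-dKO, and 111.28 and 51.24 TPM in WT. Both NFIB-cKO libraries lay below every other library, and WT 34 lay far above WT 82. NFIB-cKO minus WT was -1.002 ± 0.331 (limma, adjusted p = 0.259), and this value depended on the WT library. It was -1.55 without WT 82, and -0.45 without WT 34 or within the 80s, each with a single WT library. NFIX-cKO minus WT was -0.29 ± 0.33 (adjusted p = 0.944) and NFIB/X-dKO minus WT was -0.37 ± 0.33 (adjusted p = 0.561). The second was -0.92 within the 30s, where WT 34 is the only WT library. Without WT 34 both turned, to 0.26 and 0.18.

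Between the knockout groups Nr3c1 differed by -0.71 ± 0.33 in NFIB-cKO minus NFIX-cKO (adjusted p = 0.454) and by 0.63 ± 0.33 in NFIB/X-dKO minus NFIB-cKO (adjusted p = 0.319). The second passed when only those 2 groups were fitted (adjusted p = 0.0347), and was -0.09 with animal series as a covariate. By counts it was 11949.72 and 14015.17 reads in NFIB/X-dKO against 16373.65 and 14664.29 reads in NFIX-cKO, a difference of -0.33 ± 0.13 (edgeR, adjusted p = 0.336).

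Nr3c2 varied least relative to its level. It lies on chromosome 8 (76899442 to 77245012, plus strand) and stood at 2.79 and 2.91 TPM in NFIB-cKO, 2.75 and 2.23 TPM in NFIX-cKO, 3.29 and 3.18 TPM in NFIB/X-dKO, and 2.62 and 2.34 TPM in WT. The NFIB-cKO and NFIB/X-dKO libraries lay above both WT libraries, by 0.15 ± 0.19 (adjusted p = 0.834) and 0.28 ± 0.19 (adjusted p = 0.465), and NFIX-cKO overlapped WT (0.00 ± 0.19, adjusted p = 1). The glucocorticoid receptor gene was thus read at many times the level of the mineralocorticoid receptor gene in each library, both per length in TPM. Neither passed in the Sox9-CreER groups minus WT, at -0.55 ± 0.27 for Nr3c1 (adjusted p = 0.492) and 0.14 ± 0.16 for Nr3c2 (adjusted p = 0.827). In the 4 comparisons with WT, 0 of these 2 genes passed, where 0.149% to 2.88% of all genes did. Nr3c1 in NFIB-cKO alone was under 0.05 before adjustment, as were 12.6% of all genes there.

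Of 28 tested glucocorticoid-responsive genes, 0 passed in the Sox9-CreER groups minus WT, where 1.15% of all genes did. Before adjustment 6 were under 0.05, as were 12.2% of all genes, and the median was -0.25. In NFIB/X-dKO minus WT, where 2.88% of all genes passed, 1 rose and 2 fell, with a median of -0.31 against 0.16 over all genes. Cebpd, a transcription factor gene of the acute stress response, was at 71.48 and 70.23 TPM in NFIB-cKO, 38.43 and 84.35 TPM in NFIX-cKO, 25.1 and 30.01 TPM in NFIB/X-dKO, and 113.87 and 203.67 TPM in WT, and fell in NFIB/X-dKO (-2.43 ± 0.39, adjusted p = 0.0265). Cdkn1c, which encodes the cell cycle inhibitor p57, fell to 2.89 and 2.8 TPM in NFIB/X-dKO, against 8.71 and 6.36 TPM in WT (-1.14 ± 0.20, adjusted p = 0.0346). Sult1a1, a sulphotransferase gene, rose to 13.07 and 9.68 TPM in NFIB/X-dKO, against 2.43 and 1.15 TPM in WT (2.17 ± 0.33, adjusted p = 0.023). In the Sox9-CreER comparison none of these passed (adjusted p = 0.0755, 0.0824 and 0.109), nor did Pdk4, a mitochondrial kinase gene (-1.11 ± 0.27, adjusted p = 0.133). In NFIB-cKO and NFIX-cKO minus WT 0 of the 28 passed, where 0.719% and 0.149% of all genes did. Before adjustment 5 and 6 were under 0.05, as were 12.6% and 6.81% of all genes.

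Of 11 tested mineralocorticoid-responsive genes, 0 passed in the Sox9-CreER groups minus WT and 0 were under 0.05 before adjustment, with a median of -0.04; 0 passed in NFIB-cKO, NFIX-cKO or NFIB/X-dKO minus WT, with 0, 1 and 1 under 0.05 before adjustment, as were 16.8% of all genes in the last. Per1, a clock gene, was at 148.24 and 238.06 TPM in NFIB-cKO, 66.78 and 139.93 TPM in NFIX-cKO, 94.9 and 62.54 TPM in NFIB/X-dKO, and 132.66 and 254.62 TPM in WT, which overlapped (-0.71 ± 0.37, adjusted p = 0.537). Tsc22d3, which encodes the glucocorticoid-induced leucine zipper GILZ, differed by -0.73 ± 0.41 (adjusted p = 0.576). Tsc22d3 is also among the glucocorticoid-responsive genes, and it ran from 82.76 to 245.56 TPM within NFIB/X-dKO alone.

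None of the tested genes that fold or assist the receptors passed in the Sox9-CreER groups minus WT, where 1.15% of all genes did. Before adjustment 12.2% of all genes were under 0.05 there. Of 16 chaperone genes 0 were under 0.05 before or after adjustment, with a median of 0.06. The smallest p belonged to the heat shock genes Dnajb1 (-0.56 ± 0.29, adjusted p = 0.528), Hspa8 (-0.58 ± 0.36, adjusted p = 0.639), Hsp90aa1 (-0.43 ± 0.31, adjusted p = 0.69) and Dnaja1 (-0.43 ± 0.32, adjusted p = 0.72). Of 27 coregulator genes 0 passed, with a median of -0.06 and 1 under 0.05 before adjustment, the corepressor gene Tbl1xr1 (-0.39 ± 0.13, adjusted p = 0.276). The coactivator gene Crebbp and the oestrogen receptor partner Gata3 differed by -0.34 ± 0.15 and -0.24 ± 0.13. Of 10 androgen-responsive genes 0 passed, with a median of -0.13 and Tsc22d1 alone under 0.05 before adjustment (0.83 ± 0.20, adjusted p = 0.132); Elk4 and Acsl3 differed by -0.24 ± 0.12 and -0.32 ± 0.20. A list of 4 genes held the oestrogen-related receptor genes Esrra, Esrrb and Esrrg and the membrane oestrogen receptor gene Gper1. Esrra alone reached the filter, at 22.4 to 30.8 TPM in the transgenic groups against 23.51 and 24.33 TPM in WT (0.17 ± 0.14, adjusted p = 0.739).

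Of 23 tested genes of steroid metabolism, 0 passed in the Sox9-CreER groups minus WT, where 1.15% of all genes did. Before adjustment 8 were under 0.05, as were 12.2% of all genes, and the median was -0.05. Akr1c18, which inactivates progesterone, was at 2.32 and 2.22 TPM in NFIB-cKO, 4.34 and 0.94 TPM in NFIX-cKO, 0.53 and 0.2 TPM in NFIB/X-dKO, and 14.62 and 5.96 TPM in WT (-2.10 ± 0.44, adjusted p = 0.089). Cyp1a1, which hydroxylates oestrogens and other compounds, differed by -1.15 ± 0.23 (adjusted p = 0.08) and Hsd17b2, which inactivates oestradiol, by -0.76 ± 0.20 (adjusted p = 0.156). Cyp1a1 was at 0.07 to 1.33 TPM in the transgenic libraries against 1.76 and 2.95 TPM in WT. Hsd17b2 was at 0.06 to 1.11 TPM against 1.06 and 1.87 TPM. Without WT neither gene would have reached the filter, so a fall from WT was favoured in advance in every comparison with WT. In NFIB/X-dKO minus WT, where 1.62% of all genes passed as higher and 1.26% as lower, 1 gene rose, Sult1a1, and 3 fell. These 3 were Akr1c18 (-2.94 ± 0.54, adjusted p = 0.0387), Cyp1a1 (-1.45 ± 0.28, adjusted p = 0.0469) and Hsd3b6, a steroid dehydrogenase gene named after its values were seen (-2.37 ± 0.39, adjusted p = 0.0273), which stood at 0.37 and 0.44 TPM in NFIB/X-dKO against 3.73 and 10.2 TPM in WT. All 7 listed genes that passed in NFIB/X-dKO minus WT lost the call when NFIB/X-dKO 33 (adjusted p = 0.0856 to 0.268) or NFIB/X-dKO 36 (adjusted p = 0.0938 to 0.372) was left out, at nearly the same size. Without WT 34, WT 82, NFIB-cKO 81 or NFIB-cKO 85, the call ended for 3, 5, 5 and 5 of them in that order, and with no filter or with only these 2 groups fitted Cxcl12 alone kept it. Sebocyte markers, 4 of 5 of which reached the filter, summed to 4.62 and 2.91 TPM in NFIB/X-dKO, 7.5 and 9.42 TPM in NFIB-cKO, 25.99 and 27.72 TPM in NFIX-cKO, and 23.77 and 50.99 TPM in WT; their part in these falls was not tested. In bulk libraries fewer cells of a type and less RNA per cell cannot be told apart.

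The genes whose log2(TPM + 1) pattern over the 8 libraries was most like Esr1 were Thap4 (Pearson r = 0.98), Slc39a6 (0.96), Mcam (0.96), Smpdl3a (0.94) and Wtip (0.94). Predicted genes, pseudogenes and genes with only clone or Rik names were left out of this ranking. Thap4, which encodes a THAP domain protein, was at 39.29 to 42.59 TPM in the 6 transgenic libraries against 32.05 and 31.49 TPM in WT. Slc39a6 was at 17.49 to 20.23 TPM in them against 13.73 and 14.79 TPM in WT. It was not on the list of oestrogen-responsive genes, so the counts for that list do not cover it. Mcam, a cell adhesion molecule gene, was at 8.93 to 16.46 TPM in the 6 transgenic libraries against 2.88 and 2.69 TPM in WT. Polr3g (0.98), Pptc7 (0.98) and Thop1 (0.96) were most like Nr3c1, each highest in WT 34. Fbxw7 (0.99), Mmd (0.99) and Flot2 (0.98) were most like Nr3c2, each highest in NFIB/X-dKO. These r describe 8 libraries that share groups, animal series and the TPM scale.

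The labelled cell type was checked by its markers. All 12 hair follicle stem cell markers reached the filter, with summed levels of 24499.7 to 35314.8 TPM in the Sox9-CreER libraries against 29018.3 to 34465.1 TPM in WT, sums in which keratin genes hold the highest levels. Of the 12, 3 fell in the Sox9-CreER groups minus WT, where 0.693% of all genes did. They were Lgr5, a Wnt pathway receptor gene (-1.07 ± 0.17, adjusted p = 0.0357), and the homeobox genes Lhx2 (-0.83 ± 0.12, adjusted p = 0.0295) and Hopx (-0.93 ± 0.13, adjusted p = 0.0239). Of the 12 estimates 9 were lower, while Itga6, Krt5 and Nfatc1 were higher without passing. The sort marker Itga6 differed by 0.40 ± 0.13 (adjusted p = 0.242), and by 0.65 ± 0.16 (adjusted p = 0.0873) in NFIB/X-dKO minus WT. Cd34, the other, differed by -0.10 ± 0.13 in the Sox9-CreER groups (adjusted p = 0.871). Lgr5 averaged 62.4 ± 18.8 TPM in NFIB-cKO, 80.7 ± 1.85 TPM in NFIX-cKO, 41.7 ± 4.43 TPM in NFIB/X-dKO and 125 ± 5.25 TPM in WT (SD, n = 2 each). In NFIB/X-dKO minus WT, where 1.26% of all genes fell, 4 did, Lgr5 (-1.57), Lhx2 (-1.42), Hopx (-1.45) and the forkhead gene Foxc1 (-0.90, adjusted p = 0.0317). In NFIB-cKO minus WT, where 0.719% of all genes passed, Hopx alone fell (-1.01, adjusted p = 0.0487), and in NFIX-cKO minus WT 0 did. Without NFIB/X-dKO 33 or without NFIB/X-dKO 36, 0 of these falls passed in the Sox9-CreER groups (adjusted p = 0.0858 to 0.116), in NFIB/X-dKO (adjusted p = 0.0534 to 0.313) or in NFIB-cKO (adjusted p = 0.125). With no filter those in the Sox9-CreER groups did not pass either (adjusted p = 0.0681 to 0.101). Ly6a, which encodes Sca-1, against which cells were sorted, was at 6.46 to 36.95 TPM against 10.26 to 11.94 TPM. Fibroblast markers, 2 of 6 of which reached the filter, summed to 25.5 to 86.83 TPM against 24.47 to 25.42 TPM, with Pdgfra at no more than 0.17 TPM and Dcn at no more than 0.34 TPM in any library. Col1a1, a collagen gene of that list, was at 55.09 and 77.31 TPM as the lowest and highest NFIB-cKO library, 8.27 and 14.63 TPM in NFIX-cKO, 53.32 and 65.13 TPM in NFIB/X-dKO, and 12.21 and 16.65 TPM in WT. It was higher in NFIB-cKO minus WT (2.12 ± 0.30, adjusted p = 0.0339) and in NFIB/X-dKO minus WT (1.97 ± 0.30, adjusted p = 0.0219), and both calls ended when either library of the knockout group or of WT was left out (adjusted p = 0.0636 to 0.189). In the Sox9-CreER groups minus WT it did not pass (1.25 ± 0.24, adjusted p = 0.0758), except without NFIX-cKO 88 (adjusted p = 0.0318). Col1a2, the other fibroblast marker to reach the filter, did not follow Col1a1. Its lowest and highest libraries were at 3.26 and 9.22 TPM in NFIB-cKO and 2.17 and 2.81 TPM in NFIB/X-dKO. They were at 10.6 and 33.56 TPM in NFIX-cKO and 8.01 and 11.76 TPM in WT. The part of fibroblasts in the results above was not tested. Immune markers summed to 10.81 to 46.51 TPM against 26.55 to 38.27 TPM, endothelial to 1.81 to 2.27 TPM against 1.33 to 2.06 TPM, melanocyte to 16.17 to 32.36 TPM against 10.36 to 22.39 TPM, and Schwann cell to 3.68 to 6.93 TPM against 4.85 to 5.6 TPM. Adipocyte and muscle markers stayed below the filter.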

How the data were processed

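RNA was sequenced from 8 libraries of sorted mouse hair follicle stem cells, 2 in each of 4 groups taken from the titles. The authors deposited TPM for all 8 libraries, and expected counts, TPM and mean transcript lengths for 5; RSEM 1.2.30, Bowtie2 2.2.9 and mm10 come from the submitters' processing notes. The annotation release is not given in the sources used here, so transcript lengths and exons were taken from GENCODE M21 (GRCm38), which held all 10 Esr1 transcripts; of 22152 genes without reads, 92.8% had the deposited length within 0.51 bases in it. 92 spike-in sequences were left out (0 TPM).

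Limma 3.58.1 (R 4.3.3) was fitted to log2(TPM + 1) of all 8 libraries, with a variance trend, for the 15434 genes that reached a TPM of 1 in 2 or more libraries. Expected counts were rounded and tested with edgeR 4.0.16 (quasi-likelihood, TMM, filterByExpr) for NFIB/X-dKO against NFIX-cKO. DESeq2 1.42.0, other pseudocounts, filters and scalings, animal series and left-out libraries were the alternatives. The steps were tested on simulated data. Members, lists and tests were chosen with earlier results of these data known. From each list the up to 4 genes with the smallest p in the Sox9-CreER comparison were named, with genes called in NFIB/X-dKO. For each member the genes with the highest Pearson r were named, leaving out predicted genes, pseudogenes and genes with only clone or Rik names. The results of some genes named by this rule are not reported here, the lists leave those genes out, and no other genes were named in their place. TPM keeps no depth.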

Additional observations from a re-analysis of the deposited data

How the results depend on the processing

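No paired analysis was possible because the groups compared share no animal number. The counts of genes called moved more than the members' values. Without a filter they were 29 in NFIB-cKO minus WT (111 in the report's fit), 270 in NFIB/X-dKO minus WT (445), 104 in the Sox9-CreER groups minus WT (177), 71 in NFIB/X-dKO minus NFIB-cKO (35) and 202 in NFIB/X-dKO minus NFIX-cKO by counts (59). With only the compared groups fitted they were 36 in NFIB-cKO minus WT, 8 in NFIX-cKO minus WT (23), 192 in NFIB/X-dKO minus WT, 9 in NFIB-cKO minus NFIX-cKO (19), 2573 in NFIB/X-dKO minus NFIB-cKO and 15 in NFIB/X-dKO minus NFIX-cKO (121). With animal series as a covariate they were 200 in NFIB-cKO minus WT, 44 in NFIX-cKO minus WT, 625 in the Sox9-CreER groups minus WT and 22 in NFIB/X-dKO minus NFIB-cKO. Within 1 series they were 45 in NFIB-cKO minus WT and 17 in NFIB/X-dKO minus NFIX-cKO; a pseudocount of 0.1 gave 23 in NFIB/X-dKO minus NFIB-cKO, and DESeq2 gave 825 by counts. Leaving out each library in turn gave 11 to 157 for NFIB-cKO minus WT, 13 to 18 for NFIX-cKO minus WT, 40 to 579 for NFIB/X-dKO minus WT, 52 to 225 for the Sox9-CreER groups minus WT, 2 to 38 for NFIB-cKO minus NFIX-cKO, 8 to 74 for NFIB/X-dKO minus NFIB-cKO, 6 to 105 for NFIB/X-dKO minus NFIX-cKO and 0 to 6939 by counts. Directions turned for Nr3c1 in NFIX-cKO minus WT (-0.84 to 0.26 over the left-out libraries), Nr3c1 in NFIB/X-dKO minus WT (-0.92 to 0.18), Nr3c2 in NFIX-cKO minus WT (-0.11 to 0.11), Esr1 in NFIB/X-dKO minus NFIX-cKO (-0.69 to 0.069, and 0.069 within the 30s), Esr2 by counts (-0.68 to 0.54), and Nr3c1 in NFIB/X-dKO minus NFIB-cKO with the series covariate (-0.094). The causes were not tested. With 2 libraries a group and 3 libraries of unknown depth, members under 1 TPM carry little precision.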
